A study of Mus musculus with 20 samples.

Results

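The transcription factor NRF2, its inhibitor KEAP1 and the proteins that pair with it, compete with it or act on its turnover are encoded by 10 genes described here in mouse macrophages. They were taken by symbol as Nfe2l2, Nfe2l1, Keap1, Bach1, Mafg, Mafk, Maff, Sqstm1, Trim16 and Osgin1. All 10 are among the 22165 genes of the count table, and all 10 passed the filter on low counts that left 10663 genes to test. Transcripts were counted in bone marrow-derived macrophages grown with m-CSF from WT mice of the strain C57BL/6. Cells of the DI groups received dimethyl itaconate, a membrane-permeable itaconate ester, at 250 µM for 12 h, and cells of the Ctrl groups did not. Cells were then sampled at 0 h, or after 1, 2, 4 or 6 h with LPS + IFNg, which drive inflammatory activation, and by the labels DI and Ctrl cells of a time differ in DI alone. Each of the 10 groups holds 2 libraries. The labels do not say that the 2 libraries of a group came from separate cultures or animals, so p-values measure the spread between these libraries, which may be technical.

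NRF2 is a CNC basic leucine zipper factor that KEAP1, the substrate adaptor of a CUL3 ubiquitin ligase, holds at a low level by directing its degradation. Electrophiles that modify cysteines of KEAP1 let NRF2 accumulate and bind antioxidant response elements (AREs) as a heterodimer with a small MAF protein, which has no activation domain of its own. BACH1 pairs with the same small MAF proteins and represses many of the same sites, and p62, encoded by Sqstm1, is an autophagy receptor that can bind KEAP1. Transcript counts show none of these steps at the level of protein.

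Total counts per library ran from 3982073 to 6725447 in DI and from 3655977 to 8938983 in Ctrl. The DI libraries were less complex: genes with 1 to 3 reads numbered 333 to 674 in DI libraries and 1370 to 1741 in Ctrl libraries. In DI libraries 15.4 to 49.2% of the genes expected at 4 to 12 reads had none, as did 3.33 to 12.9% in Ctrl libraries. This difference runs with the treatment at every time, and its part in the results below was not tested. Expected reads came from the other libraries of the same treatment at all times, so genes that change over time can add to the shares without reads. The summed level of 8 macrophage markers was 2620 to 4382 CPM in DI and 3246 to 4757 CPM in Ctrl libraries. These CPM of markers are read counts divided by the library total without TMM adjustment. The levels of single genes given below are read counts divided by the TMM-adjusted library total. In both treatments these levels are lower at 0 h, and higher at 4 and 6 h, than CPM of the unadjusted total. Changes from 0 h therefore depend on the scaling. Of the other lists, 7 neutrophil markers summed to 279.5 to 537 CPM in DI and 255 to 636 CPM in Ctrl, and 5 dendritic cell markers to 7.24 to 26.3 CPM in DI and 12.5 to 43.4 CPM in Ctrl. The 5 fibroblast markers summed to 5.30 to 39.7 CPM in DI and 38.5 to 68.7 CPM in Ctrl libraries. B cell, T and NK cell, mast cell and erythroid markers stayed at or under 7.47 CPM in DI and 5.98 CPM in Ctrl, with Cd3e, Ncr1, Fcer1a, Alas2 and Hbb-bs at 0 in all libraries. The part of other cell types in the results was not tested. In such bulk samples fewer cells of a type and less RNA per cell cannot be told apart.

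DI was set against Ctrl at each time to ask which of the regulators it changed at the level of transcript. Sqstm1 and Mafg were higher in DI cells at all 5 times, Osgin1 at 0, 2 and 6 h, Trim16 at 4 and 6 h, Nfe2l2 at 4 h, Nfe2l1 at 6 h and Maff at 0 h. No member was called lower in DI at any time, and Keap1, Bach1 and Mafk were called at none. A gene was called at an adjusted p under 0.05 in edgeR's quasi-likelihood test, with Benjamini-Hochberg adjustment over all genes of the contrast. At an unadjusted p under 0.05, 1 member was lower in DI at 1 h and at 4 h, Maff, and 0 at the other times, and limma-voom and the DESeq2 Wald test called 0 lower. At 0 h 4 of 10 members were called, all higher, where 3.60% of all tested genes were called and 1.43% were called higher. At 1 h 2 members were called, where the shares of all genes were 4.89% either way and 1.86% higher. At 2 h 3 members were called, against 6.24% and 2.27% of all genes. The counts were 4 members at 4 h, against 9.43% and 3.43%, and 5 members at 6 h, against 14.2% and 5.24%. The median log2 DI/Ctrl of the 10 members was 0.53, 0.48, 0.46, 1.15 and 0.73 at 0, 1, 2, 4 and 6 h, and that of all tested genes lay between -0.07 and 0.00. Both DI libraries lay above both Ctrl libraries for 5, 5, 9, 7 and 6 members at 0, 1, 2, 4 and 6 h, as they did for 19.8%, 22.9%, 23.0%, 22.3% and 23.7% of all tested genes. They lay below for 1, 2, 0, 2 and 0 members, and for 26.7%, 25.3%, 28.3%, 31.2% and 29.7% of all genes. When only the compared groups were fitted, the 0 h calls of Sqstm1, Mafg, Maff and Osgin1 (adjusted p = 0.0711 to 0.282), Mafg at 1 h (0.0602), Osgin1 at 2 h (0.0684) and Trim16 at 4 h (0.0792) missed the threshold.

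**Figure D1:**
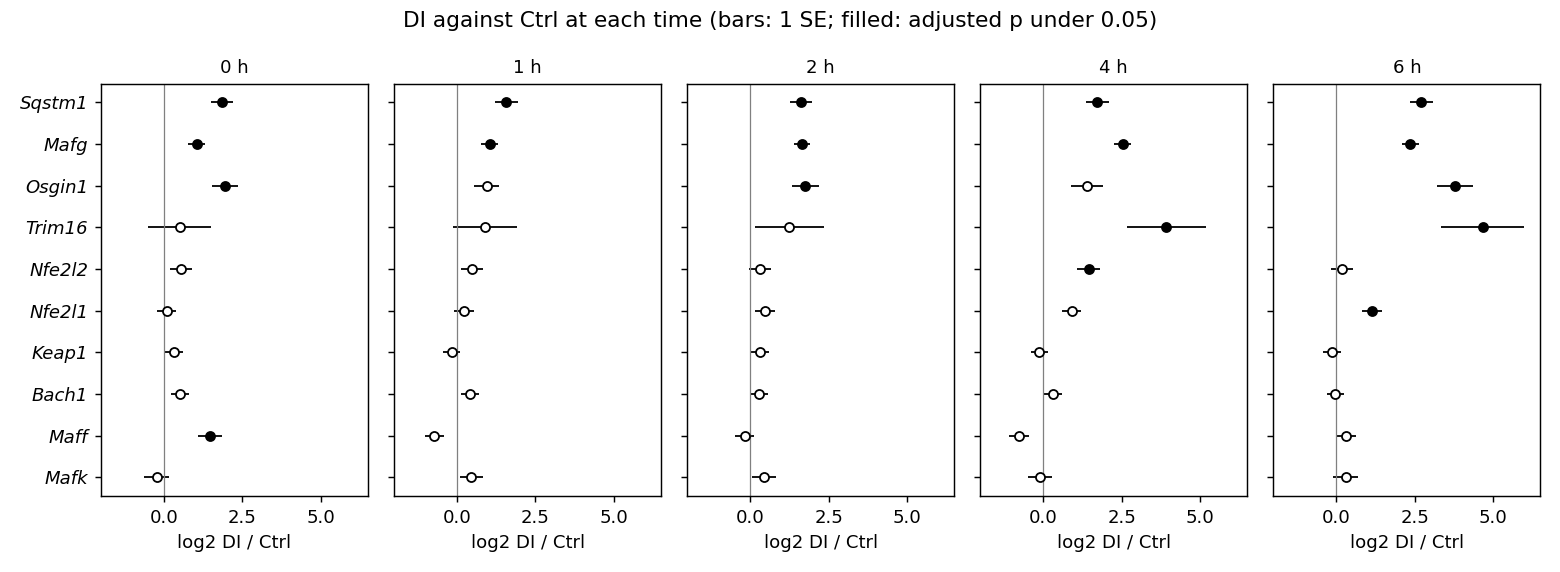
Log2 fold change of DI over Ctrl for the 10 members at 0, 1, 2, 4 and 6 h, from the fit to all 20 libraries. Bars are 1 SE, and filled points have an adjusted p under 0.05. Filled points lie right of 0 in every panel, Sqstm1 and Mafg are filled in all 5, and the bars of Trim16 are the widest.

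Nfe2l2 encodes NRF2 itself (chr2:75675513-75704641, minus strand, GRCm38, protein-coding gene). In DI cells its level was 179.9 and 334 CPM at 0 h, 699.7 and 416 at 1 h, 421 and 461 at 2 h, 446 and 442 at 4 h, and 428 and 543 CPM at 6 h. In Ctrl cells it was 197 and 157 CPM at 0 h, 305 and 488 at 1 h, 322 and 388 at 2 h, 169 and 155 at 4 h, and 601 and 261 CPM at 6 h. The libraries overlapped between DI and Ctrl at 0, 1 and 6 h and stood apart at 2 and 4 h. With TMM scaling Ctrl cells at 4 h were back at their 0 h level. Divided by the library total without TMM, Ctrl libraries held 276 and 216 CPM at 0 h and 134 and 114 CPM at 4 h. At 6 h they held 460 and 211 CPM by that measure. At 4 h Nfe2l2 was 2.74-fold higher in DI (log2 1.45 ± 0.36 SE, adjusted p = 0.00963). That call was lost without either Ctrl 4 h library, though the log2 difference hardly moved, at 1.51 without replicate 1 and 1.39 without replicate 2. At the other times the log2 difference was 0.17 to 0.54 and was not called, with a 95% interval of -0.15 to 1.22 at 0 h, before the stimulus. Over time in Ctrl, Nfe2l2 rose by 6 h (log2 1.28 ± 0.35, adjusted p = 0.00827). Without Ctrl 6 h replicate 1, the highest Ctrl library, that value was 0.55 (adjusted p = 0.397), and without Ctrl 0 h replicate 2 the adjusted p was 0.101. The log2 change from 0 h was 1.16 at 1 h and 1.00 at 2 h in Ctrl (adjusted p = 0.0689 and 0.0659), and 1.12 at 1 h and 0.92 at 6 h in DI (adjusted p = 0.0909 and 0.0680). Both Ctrl values fell under 0.05 in limma-voom (adjusted p = 0.0458 at 1 h and 0.0433 at 2 h) and in the DESeq2 Wald test (0.0232 at 1 h and 0.0385 at 2 h), and so did the DI value at 6 h (0.0440 in limma-voom and 0.0494 in the Wald test). Without DI 0 h replicate 2 the DI changes were 1.63, 1.30 and 1.43 at 1, 4 and 6 h and were called (adjusted p = 0.0320, 0.0401 and 0.0256). The 6 h response difference of Nfe2l2 was not called.

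The RefSeq promoters (GRCm38.p6) of 9 of the 10 members were searched on both strands for the ARE core TGACNNNGC, since NRF2 and small MAF genes are themselves described as NRF2 targets. Each of their 15 windows runs from 250 bases before to 50 bases after a transcription start. The core was in 1 window each of 4 members, Nfe2l2, Mafg, Mafk and Maff, and 12.4% of all 32851 promoters hold it. The window of Nfe2l2 (chr2:75704614-75704913, minus strand) has it at -240 to -232, counted back from the start, and it is shown because Nfe2l2 encodes the factor in question. Capitals mark the match.
Nfe2l2 promoter: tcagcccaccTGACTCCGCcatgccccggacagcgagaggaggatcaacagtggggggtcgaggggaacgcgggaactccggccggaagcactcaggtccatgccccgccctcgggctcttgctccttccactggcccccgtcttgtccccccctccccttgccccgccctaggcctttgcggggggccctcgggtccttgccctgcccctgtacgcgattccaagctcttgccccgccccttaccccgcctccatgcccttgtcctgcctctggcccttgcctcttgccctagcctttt
A match of these letters is a description of the sequence and was not tested as a binding site. The window of Sqstm1, called higher in DI at all 5 times, has no such match. Mafk has the core and was not called in DI against Ctrl at any time. Whether a match in any window bears on a change was not tested.

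Nfe2l1 encodes NRF1, a CNC factor of the endoplasmic reticulum membrane that controls proteasome genes (chr11:96817414-96829968, minus strand). Its DI libraries held 135 and 245 CPM at 0 h, 154 and 247 at 1 h, 216 and 258 at 2 h, 234 and 293 at 4 h, and 235 and 421 CPM at 6 h. Its Ctrl libraries held 173 and 185 CPM at 0 h, 169 and 174 at 1 h, 190.1 and 151 at 2 h, 134 and 147 at 4 h, and 149.8 and 147 CPM at 6 h. The groups overlapped at 0 and 1 h, and every DI library lay above the Ctrl libraries at 2, 4 and 6 h. The log2 DI/Ctrl was 0.09, 0.23, 0.48, 0.91 and 1.14 over the 5 times, and 6 h was called (± 0.32 SE, adjusted p = 0.0157) while 4 h was not (adjusted p = 0.0718). At 4 h the adjusted p was 0.0433 in the DESeq2 Wald test, 0.0353 with scaling on genes of at least 32 CPM and 0.0396 with only the compared groups fitted. Without DI 6 h replicate 2, the library at 421 CPM, the 6 h value was 0.66 (adjusted p = 0.273). Without Ctrl 6 h replicate 1 or 2 the adjusted p was 0.105 or 0.107. Nfe2l1 was not called over time in either treatment. Its DI change at 6 h, 0.78 (adjusted p = 0.0803), was 1.27 without DI 0 h replicate 2 and 1.14 without DI 6 h replicate 1 (adjusted p = 0.0220 and 0.0239).

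Keap1 encodes the sensor that binds NRF2 (chr9:21229730-21239361, minus strand). Its DI libraries held 158 and 189.9 CPM at 0 h, 164 and 152 at 1 h, 132 and 119 at 2 h, 240.4 and 228 at 4 h, and 182 and 369 CPM at 6 h. Its Ctrl libraries held 131 and 145 CPM at 0 h, 188 and 166 at 1 h, 93.5 and 106 at 2 h, 244 and 263 at 4 h, and 320.4 and 279.6 CPM at 6 h. DI libraries were above Ctrl libraries at 0 and 2 h, below them at 1 and 4 h, and on either side of them at 6 h. The log2 DI/Ctrl lay between -0.17 and 0.34, its 95% intervals reached from -0.72 to 0.89, and no time was called. With TMM scaling Keap1 rose in Ctrl cells by 0.88 ± 0.28 on the log2 scale at 4 h (adjusted p = 0.0240). At 6 h it rose by 1.12 ± 0.28 (adjusted p = 0.00410). These rises depend on the scaling. Divided by the library total without TMM, its Ctrl libraries held 183 and 199 CPM at 0 h and 193 and 193 CPM at 4 h. At 6 h they held 245 and 226 CPM. At 2 h the TMM-scaled change from 0 h was -0.46 in Ctrl and -0.47 in DI cells, and neither was called. In DI cells the changes were 0.43 at 4 h and 0.66 at 6 h and were not called (adjusted p = 0.314 and 0.104), although without DI 6 h replicate 1 the 6 h change was 1.08 (adjusted p = 0.00987). The test of the response itself, the DI change from 0 h minus the Ctrl change, did not call Keap1 at any time. The Ctrl 4 h call was lost without any of its 4 libraries (adjusted p = 0.166 and 0.0951 without Ctrl 0 h replicate 1 and 2, 0.0778 and 0.135 without Ctrl 4 h replicate 1 and 2). The Ctrl 6 h call was lost without Ctrl 0 h replicate 1 (adjusted p = 0.0546).

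Sqstm1 encodes p62 (chr11:50199366-50210827, minus strand). Its DI libraries held 1434 and 683 CPM at 0 h, 1021 and 1006 at 1 h, 1593 and 1532 at 2 h, 2827 and 2237 at 4 h, and 3568 and 2371 CPM at 6 h. Its Ctrl libraries held 405 and 179.6 CPM at 0 h, 408 and 272 at 1 h, 569 and 438 at 2 h, 876 and 649 at 4 h, and 431 and 474 CPM at 6 h. At every time both DI libraries lay above both Ctrl libraries, and the means differed 3.62-fold at 0 h, 2.98-fold at 1 h, 3.10-fold at 2 h, 3.32-fold at 4 h and 6.56-fold at 6 h. The log2 difference was 1.86 ± 0.36 SE at 0 h (adjusted p = 0.00219) and 2.71 ± 0.37 at 6 h (adjusted p = 1.21e-05), and it was called at 1, 2 and 4 h too (adjusted p = 0.00735, 0.00500 and 0.00204). The 2 libraries of each 0 h group were far apart: the adjusted p at 0 h was 0.0857 without DI 0 h replicate 1 and 0.0939 without Ctrl 0 h replicate 2. It was 0.165, 0.0909 and 0.0627 at 1, 2 and 4 h without Ctrl replicate 2 of that time, and the 6 h call held without any library. Sqstm1 also rose with the stimulus in DI cells, by 1.26 ± 0.35 at 4 h (adjusted p = 0.0126) and 1.49 ± 0.35 at 6 h (adjusted p = 0.00359), and in Ctrl cells at 4 h, by 1.38 ± 0.35 (adjusted p = 0.00475). At 6 h the Ctrl change was 0.63 (adjusted p = 0.200), but it was 1.33 and was called without Ctrl 0 h replicate 1 (adjusted p = 0.0232), as was the 2 h change at 1.48 (0.0227, against 0.78 and 0.174 with all libraries), and the response difference at 6 h, 0.86 ± 0.49, was not called (adjusted p = 0.559). The called rises were lost without some of the libraries. The DI values were 0.0803 at 4 h and 0.0504 at 6 h as adjusted p without DI replicate 1 of that time, and 0.176 and 0.0854 without DI 0 h replicate 2. Omitting Ctrl 0 h replicate 2 gave an adjusted p of 0.140 for the Ctrl rise, and omitting Ctrl 4 h replicate 1 gave 0.0643. On the opposite strand 750 bases of Mrnip overlap Sqstm1, and Mrnip held 52 counts over all libraries against 111104 of Sqstm1.

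**Figure D2:**
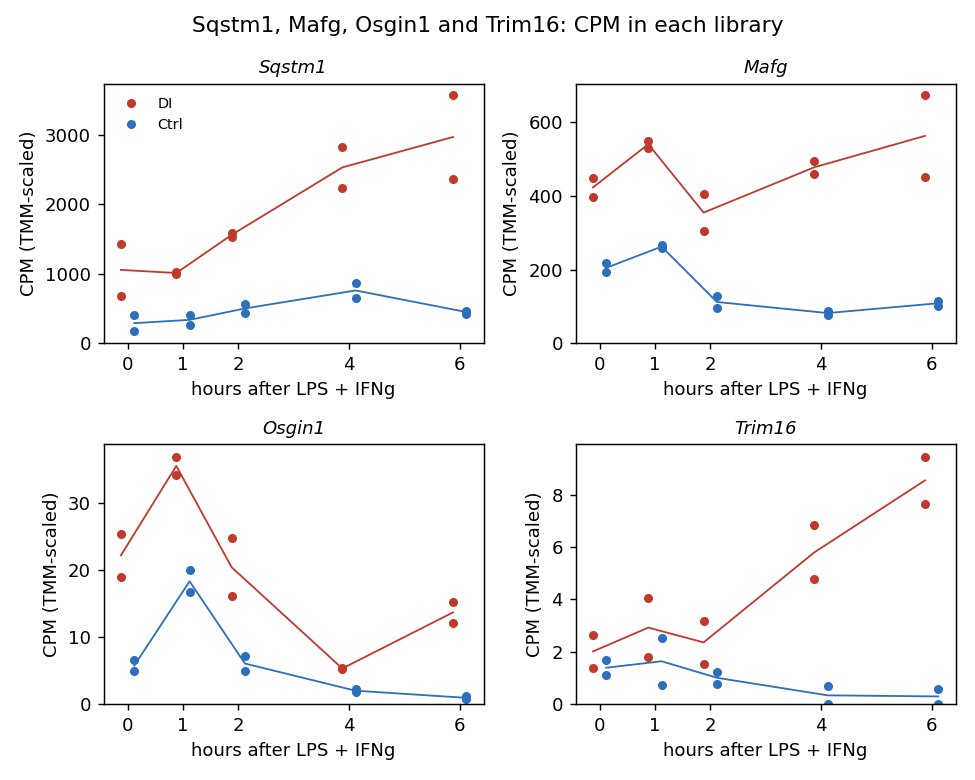
TMM-scaled CPM of Sqstm1, Mafg, Osgin1 and Trim16 in each of the 20 libraries against hours after LPS + IFNg. Points are libraries, lines join group means, DI is red and Ctrl blue. At 4 and 6 h both DI libraries lie above both Ctrl libraries for all 4 genes, and Sqstm1 in DI reaches 3568 CPM.

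Mafg encodes a small MAF partner of NRF2 (chr11:120625117-120633600, minus strand), and its promoter (chr11:120633498-120633797, minus strand) has an ARE core at -222 to -214, on the other strand. It is shown because Mafg was higher in DI cells at all 5 times, and capitals mark the match.
Mafg promoter: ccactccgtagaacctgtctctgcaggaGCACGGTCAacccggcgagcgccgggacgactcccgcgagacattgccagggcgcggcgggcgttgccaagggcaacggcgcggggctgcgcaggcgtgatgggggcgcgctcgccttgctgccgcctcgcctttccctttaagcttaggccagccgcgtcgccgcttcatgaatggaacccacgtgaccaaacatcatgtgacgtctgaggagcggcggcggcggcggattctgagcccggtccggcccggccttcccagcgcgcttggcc
In DI libraries Mafg held 396 and 448 CPM at 0 h, 530.1 and 548 at 1 h, 303 and 405 at 2 h, 494 and 459.8 at 4 h, and 449.9 and 673 CPM at 6 h. In Ctrl libraries it held 217 and 192 CPM at 0 h, 257 and 267 at 1 h, 128 and 96.2 at 2 h, 76.4 and 88.3 at 4 h, and 102 and 116 CPM at 6 h. The groups did not overlap at any time. With TMM scaling the lowest DI library of all, at 2 h, was above the highest Ctrl library, at 1 h. Divided by the library total without TMM, the lowest DI library held 302.5 CPM at 2 h. By that measure the highest Ctrl library held 303.6 CPM, at 0 h. The DI mean was 2.06-fold higher at 0 and 1 h, 3.15-fold at 2 h, 5.79-fold at 4 h and 5.16-fold at 6 h. The log2 difference was 1.05 ± 0.26 SE at 0 h (adjusted p = 0.0206) and 2.53 ± 0.28 at 4 h (adjusted p = 9.44e-07). The calls at 2, 4 and 6 h held in every alternative. The 0 h call was lost without Ctrl 0 h replicate 1 (adjusted p = 0.129) or 2 (0.247) or DI 0 h replicate 2 (0.102). The 1 h call was lost without any of its 4 libraries (adjusted p = 0.0530 to 0.166).

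In Ctrl cells Mafg fell below its 0 h level by 0.87 ± 0.26 on the log2 scale at 2 h (adjusted p = 0.0287), 1.31 ± 0.27 at 4 h (adjusted p = 0.000518) and 0.91 ± 0.26 at 6 h (adjusted p = 0.0114). In DI cells the same changes were -0.25, 0.18 and 0.41 and were not called (adjusted p = 0.618, 0.696 and 0.285). The response differences, 1.49 ± 0.37 at 4 h and 1.32 ± 0.37 at 6 h, were just short of the threshold (adjusted p = 0.0580 and 0.0770). Their adjusted p ran from 0.00272 to 0.290 at 4 h and from 0.0114 to 0.286 at 6 h over the alternatives, so a difference in response was not established here. The Ctrl fall at 2 h was lost without Ctrl 0 h replicate 1 or 2 (adjusted p = 0.198 and 0.0827) or Ctrl 2 h replicate 2 (0.334), and at 6 h without Ctrl 0 h replicate 1 (0.0868) or Ctrl 6 h replicate 1 (0.113). At its 3′ end Mafg shares 124 bases with Sirt7 on the same strand, and Sirt7 held 4758 counts over all libraries against 35012 of Mafg. How reads in shared bases were counted is not given in the sources used here.

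Maff and Mafk encode the other small MAF proteins, and Maff was the member that rose most after the stimulus. Maff (chr15:79346621-79359076, plus strand) has 3 promoter windows. The first (chr15:79346371-79346670) holds an ARE core at -112 to -104, and the second (chr15:79347270-79347569) holds the cyclic AMP response element TGACGTCA at -29 to -22, which 1.79% of all promoters hold. They are shown because Maff rose most of the members after the stimulus, with the matches in capitals. Whether either match bears on a change of Maff was not tested.
Maff promoter, first window: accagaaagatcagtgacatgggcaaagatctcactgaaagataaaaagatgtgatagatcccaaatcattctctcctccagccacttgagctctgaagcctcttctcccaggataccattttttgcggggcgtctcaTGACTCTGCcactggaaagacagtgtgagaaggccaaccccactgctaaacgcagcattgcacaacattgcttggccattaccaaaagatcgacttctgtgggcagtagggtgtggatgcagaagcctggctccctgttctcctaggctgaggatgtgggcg
Maff promoter, second window: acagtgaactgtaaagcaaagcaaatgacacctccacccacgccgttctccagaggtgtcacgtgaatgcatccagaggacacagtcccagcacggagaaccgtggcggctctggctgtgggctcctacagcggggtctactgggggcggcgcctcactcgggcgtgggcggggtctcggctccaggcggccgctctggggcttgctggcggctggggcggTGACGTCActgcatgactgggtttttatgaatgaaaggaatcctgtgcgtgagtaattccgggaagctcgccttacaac
In DI cells Maff was at 4.59 and 6.57 CPM at 0 h, 79.3 and 84.7 at 1 h, 191 and 305 at 2 h, 93.6 and 107 at 4 h, and 68.8 and 44.1 CPM at 6 h. In Ctrl cells it was at 1.84 and 2.22 CPM at 0 h, 155 and 115 at 1 h, 311 and 245 at 2 h, 136 and 204 at 4 h, and 48.3 and 42.4 CPM at 6 h. Both treatments peaked at 2 h. DI libraries were above Ctrl libraries at 0 h, below them at 1 and 4 h, and overlapped with them at 2 and 6 h.

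From 0 h to 2 h Maff rose by 5.45 ± 0.38 in DI cells and by 7.09 ± 0.41 in Ctrl cells on the log2 scale (adjusted p = 9.60e-11 and 3.63e-12). Its rise was called at all 4 stimulated times in both treatments. The rise in DI cells minus that in Ctrl cells was -2.19 ± 0.49 at 1 h (adjusted p = 0.0557), -1.64 ± 0.49 at 2 h (0.203), -2.24 ± 0.49 at 4 h (0.0217) and -1.15 ± 0.49 at 6 h (0.345). At 0 h, where its counts were lowest, Maff was higher in DI (log2 1.47 ± 0.38, adjusted p = 0.0265). The 0 h libraries held 26 and 57 reads of Maff in DI and 23 and 22 in Ctrl. At 1 and 4 h the log2 DI/Ctrl was -0.71 and -0.76 and was not called (adjusted p = 0.231 and 0.126). The 4 h response difference combines a higher 0 h level with lower values at 4 h in DI, and it was lost without 6 of its 8 libraries. Its adjusted p was 0.182 and 0.100 without Ctrl 0 h replicate 1 and 2. Omitting Ctrl 4 h replicate 2 gave 0.180, and omitting DI 0 h replicate 2 gave 0.113. It was 0.0562 and 0.0640 without DI 4 h replicate 1 and 2, 0.222 in limma-voom, 0.230 with quality weights by treatment, 0.0677 for estimated molecules and 0.101 with only the compared groups fitted. The 0 h call was lost without Ctrl 0 h replicate 1 or 2 (adjusted p = 0.296 and 0.123) or DI 0 h replicate 2 (0.243), in limma-voom (0.225 or, with quality weights, 0.221) and for estimated molecules (0.0735).

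Mafk (chr5:139791513-139802653, plus strand) has an ARE core at -13 to -5 of its window. Its DI libraries held 6.71 and 8.29 CPM at 0 h, 27.9 and 37.8 at 1 h, 51.3 and 62.4 at 2 h, 53.6 and 21.7 at 4 h, and 20.9 and 26.3 CPM at 6 h. Its Ctrl libraries held 8.39 and 9.27 CPM at 0 h, 22.9 and 24.8 at 1 h, 37.4 and 45.6 at 2 h, 31.4 and 48.7 at 4 h, and 17.5 and 20.6 CPM at 6 h. DI libraries were below Ctrl libraries at 0 h, above them at 1, 2 and 6 h, and on either side of them at 4 h. The log2 DI/Ctrl lay between -0.23 and 0.46 and no time was called. Mafk rose at every stimulated time, by 2.91 ± 0.41 at 2 h in DI (adjusted p = 9.48e-06) and by 2.23 ± 0.39 at 2 h in Ctrl (adjusted p = 0.000169). The Ctrl calls at 1 h (log2 1.43, adjusted p = 0.0293) and 6 h (log2 1.11, adjusted p = 0.0386) were each lost without any of their 4 libraries. The adjusted p then ran from 0.105 without Ctrl 1 h replicate 1 to 0.299 without Ctrl 0 h replicate 1 at 1 h, and from 0.0909 without Ctrl 6 h replicate 1 to 0.199 without Ctrl 6 h replicate 2 at 6 h. On the opposite strand Tmem184a shares 169 bases with Mafk and held 0 counts.

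Bach1 encodes the repressor that competes with NRF2 for small MAF partners and is degraded when heme binds it (chr16:87698945-87733346, plus strand). Its DI libraries held 164 and 269.8 CPM at 0 h, 763 and 764 at 1 h, 1122 and 1335 at 2 h, 383 and 464 at 4 h, and 271 and 442 CPM at 6 h. Its Ctrl libraries held 171 and 131 CPM at 0 h, 641 and 505 at 1 h, 999 and 1002 at 2 h, 325 and 352 at 4 h, and 401 and 323 CPM at 6 h. DI libraries stood above Ctrl libraries at 1, 2 and 4 h and overlapped with them at 0 and 6 h. The log2 DI/Ctrl ran from -0.02 to 0.52 and was called at no time (95% interval -0.13 to 0.97 at 1 h). Bach1 rose by 2.50 ± 0.30 in DI and by 2.73 ± 0.30 in Ctrl cells by 2 h (log2, adjusted p = 7.84e-07 and 1.91e-07). The rise was called at 1, 2 and 4 h in both treatments and at 6 h in Ctrl, where DI had 0.71 ± 0.28 (adjusted p = 0.0775) and Ctrl 1.26 ± 0.29 (adjusted p = 0.00154). That DI value was called in the DESeq2 Wald test (adjusted p = 0.0477), without DI 0 h replicate 2 (1.11, 0.0267) and when DI 6 h replicate 1 was left out (1.02, 0.0258). The response differences of Bach1 were not called. The DI call at 4 h (log2 0.96) was lost without DI 0 h replicate 1 (adjusted p = 0.194) or DI 4 h replicate 2 (0.130), and the Ctrl call at 4 h without Ctrl 0 h replicate 2 (0.0761).

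**Figure D3:**
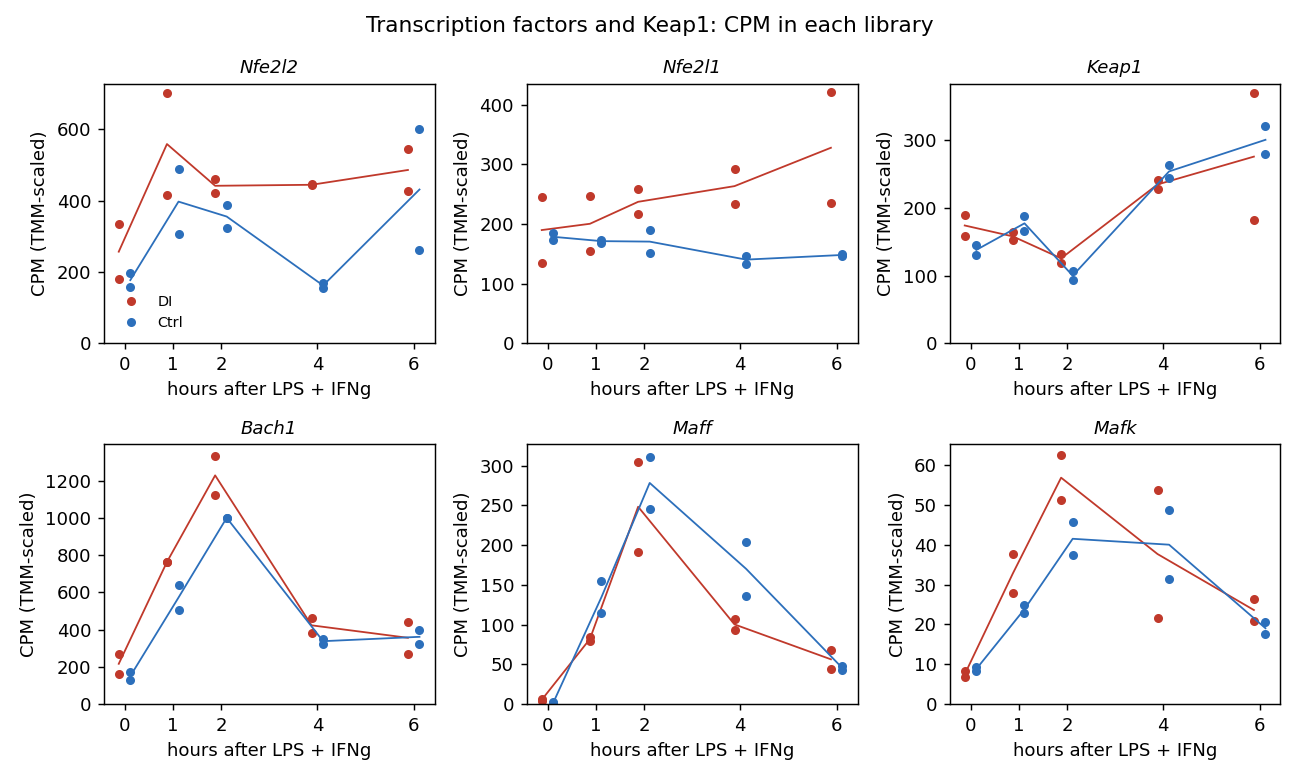
TMM-scaled CPM of Nfe2l2, Nfe2l1, Keap1, Bach1, Maff and Mafk in each of the 20 libraries against hours after LPS + IFNg. Points are libraries, lines join group means, DI is red and Ctrl blue. Bach1, Maff and Mafk peak at 2 h in DI, and Nfe2l2 at 4 h is near 444 CPM in DI and 162 CPM in Ctrl.

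Osgin1 encodes an oxidative stress-induced growth inhibitor and is described as an NRF2 target (chr8:119434124-119446256, plus strand). Its RefSeq window (chr8:119436897-119437196, plus strand) starts inside the gene as GENCODE draws it. It holds the NF-E2 site TGANTCAGC at -99 to -91 on the other strand, which 1.19% of all promoters hold and no other window of a member does. The match overlaps the shorter AP-1 site TGANTCA at -97 to -91, which 7.81% of promoters hold. The sequence is shown because Osgin1 moved with DI, with the NF-E2 match in capitals.
Osgin1 promoter: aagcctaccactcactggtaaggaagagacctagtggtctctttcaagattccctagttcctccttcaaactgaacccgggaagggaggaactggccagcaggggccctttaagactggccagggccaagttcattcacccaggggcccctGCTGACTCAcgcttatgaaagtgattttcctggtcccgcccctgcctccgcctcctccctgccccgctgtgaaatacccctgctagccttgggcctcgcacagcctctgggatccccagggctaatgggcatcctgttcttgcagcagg
In DI cells Osgin1 was at 25.4 and 19.0 CPM at 0 h, 36.9 and 34.1 at 1 h, 16.1 and 24.7 at 2 h, 5.36 and 5.30 at 4 h, and 12.1 and 15.3 CPM at 6 h. In Ctrl cells it was at 4.95 and 6.55 CPM at 0 h, 19.98 and 16.7 at 1 h, 7.13 and 5.01 at 2 h, 2.22 and 1.81 at 4 h, and 0.715 and 1.19 CPM at 6 h, where the libraries held 2 and 4 reads. Every DI library lay above the Ctrl libraries of its time, and both treatments were highest at 1 h.

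Osgin1 was higher in DI by 1.95 ± 0.41 (log2) at 0 h (adjusted p = 0.00532), 1.76 ± 0.43 at 2 h (0.0120) and 3.78 ± 0.56 at 6 h (3.83e-05). The differences of 0.96 at 1 h and 1.40 at 4 h were not called (adjusted p = 0.211 and 0.0839), although the 1 h difference was called for estimated molecules (0.0373). The 6 h call held in every alternative. The 0 h call was lost without Ctrl 0 h replicate 1 or 2 (adjusted p = 0.156 and 0.0545) or DI 0 h replicate 1 (0.0529). The 2 h call was lost without Ctrl 2 h replicate 1 or 2 (adjusted p = 0.0592 and 0.193) or DI 2 h replicate 2 (0.140). With the stimulus Osgin1 rose in Ctrl cells at 1 h by 1.67 ± 0.41 (adjusted p = 0.0153), and then fell below the 0 h level by 1.51 ± 0.48 at 4 h (0.0239) and by 2.54 ± 0.57 at 6 h (0.00140). In DI cells it fell by 2.05 ± 0.44 at 4 h (adjusted p = 0.00130), and the changes of 0.68 at 1 h and -0.70 at 6 h were not called. The response difference at 6 h was 1.84 ± 0.71 (adjusted p = 0.263). The Ctrl rise at 1 h was lost without any of its 4 libraries (adjusted p = 0.303 and 0.104 without Ctrl 0 h replicate 1 and 2, 0.150 and 0.0624 without Ctrl 1 h replicate 1 and 2). The Ctrl fall at 4 h was lost without Ctrl 0 h replicate 2 (0.150), Ctrl 4 h replicate 1 (0.0983) or Ctrl 4 h replicate 2 (0.194), in limma-voom (0.159) and with no filter on low counts (0.0618). The Ctrl fall at 6 h was lost in limma-voom (adjusted p = 0.0544), and the DI fall at 4 h was just short of the threshold with quality weights by treatment (0.05005).

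Trim16 encodes a tripartite motif protein reported in human cells to bind p62, KEAP1 and NRF2 (chr11:62820231-62850808, plus strand), and it was the member with the fewest reads, 0 to 46 per library. Its DI libraries held 2.65 and 1.38 CPM at 0 h, 1.81 and 4.04 at 1 h, 3.18 and 1.55 at 2 h, 6.83 and 4.77 at 4 h, and 9.45 and 7.64 CPM at 6 h. Its Ctrl libraries held 1.68 and 1.11 CPM at 0 h, 2.55 and 0.735 at 1 h, 1.23 and 0.791 at 2 h, 0 and 0.679 at 4 h, and 0 and 0.597 CPM at 6 h. The groups overlapped at 0 and 1 h and stood apart, higher in DI, at 2, 4 and 6 h. At 4 h DI held 46 reads and Ctrl 3, a scaled ratio of 15.6 with an exact 95% counting interval of 5.02 to 78.5 (adjusted p = 0.0469). At 6 h DI held 73 reads and Ctrl 2, a ratio of 26.7 with an interval of 7.13 to 225 (adjusted p = 0.0174). These intervals cover counting error only, and the reads carry no molecular identifiers that the labels name. Estimated from the genes with no read among those expected at 4 to 12, each molecule gave 6.51 and 10.2 reads in the DI libraries and 3.24 and 3.28 in the Ctrl libraries at 4 h, and 5.88 and 9.54 in DI and 3.31 and 3.29 in Ctrl at 6 h. Expected reads were taken from the other libraries of the same treatment at all times, so changes over time can raise these estimates. Where a molecule gave several reads, intervals for reads are narrower than those for molecules. Collapsed to estimated molecules, Trim16 had too few counts to be tested. The 4 h call was lost without any of its 4 libraries (adjusted p = 0.317 and 0.0880 without Ctrl 4 h replicate 1 and 2, 0.0932 and 0.0707 without DI 4 h replicate 1 and 2), and with the replicate block (0.0629). The 6 h call was lost without Ctrl 6 h replicate 1 or 2 (adjusted p = 0.180 and 0.05002). Trim16 shares 3740 bases with Fbxw10 on the same strand, and Fbxw10 held 46 counts over all libraries against 272 of Trim16, so its reads are uncertain.

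The change from 0 h was counted over the members to ask which of them the stimulus moved. In DI cells 3, 3, 5 and 3 members were called at 1, 2, 4 and 6 h, where 3.59%, 11.0%, 18.7% and 20.1% of all genes were called. In Ctrl cells 4, 4, 7 and 7 members were called, where 4.07%, 12.2%, 24.3% and 26.5% of all genes were called. Quality weights by treatment, which allow DI and Ctrl a different spread, called 182, 614, 1055 and 1140 of all genes in DI. In Ctrl they called 1238, 3164, 4663 and 4558. The main counts were 383, 1169, 1998 and 2148 in DI and 434, 1303, 2594 and 2826 in Ctrl. Counts of DI and Ctrl are therefore not read against each other. Maff and Mafk rose at all 4 times in both treatments. Falls were called for Mafg in Ctrl at 2, 4 and 6 h and for Osgin1 in Ctrl at 4 and 6 h and in DI at 4 h. The response difference was called for 0 members at 1, 2 and 6 h and for 1 member, Maff, at 4 h, where 0.253%, 0.356%, 0.760% and 1.55% of all genes were called at 1, 2, 4 and 6 h. At an unadjusted p under 0.05 the counts were 1, 1, 3 and 5 members, limma-voom called 0, 0, 1 and 0, and the DESeq2 Wald test called 1, 0, 2 and 1. The limma-voom call at 4 h was Mafg, higher (adjusted p = 0.04996), and not Maff. Scaled on genes of at least 32 CPM, the median change of all genes in Ctrl was -0.49 at 4 h and -0.48 at 6 h, in place of -0.15 and -0.17. The rises of Keap1 at 4 h (0.54, adjusted p = 0.150) and Mafk at 6 h (0.80, adjusted p = 0.132) in Ctrl and of Bach1 at 4 h in DI (0.74, adjusted p = 0.0543) then missed the threshold. Mafk in Ctrl at 6 h also missed it in limma-voom (adjusted p = 0.0662) and with no filter on low counts (0.0520). With quality weights by treatment the DI rises of Bach1 and Sqstm1 at 4 h and of Mafk at 6 h missed it (adjusted p = 0.0630, 0.0830 and 0.0617), as they did with only the compared groups fitted (0.105, 0.0508 and 0.0695).

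**Figure D4:**
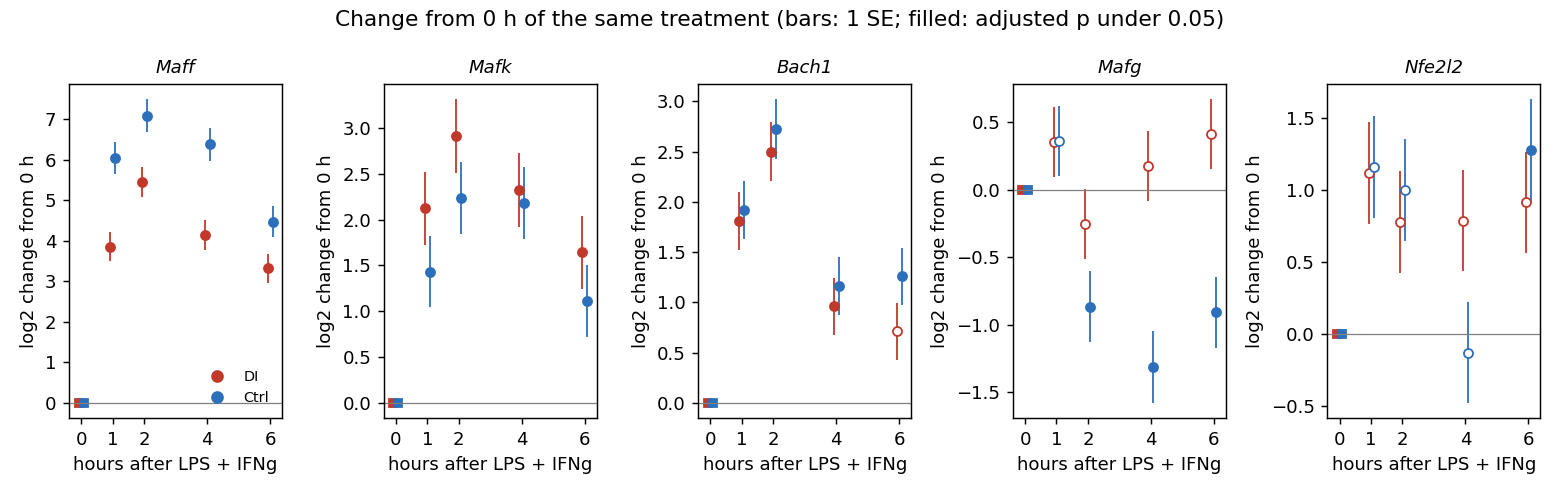
Log2 change from 0 h of the same treatment for Maff, Mafk, Bach1, Mafg and Nfe2l2 against hours after LPS + IFNg, with its own vertical scale in each panel. Bars are 1 SE, filled points have an adjusted p under 0.05, squares mark 0 h, DI is red and Ctrl blue. Maff in DI lies below Ctrl at all 4 times, by 2.24 at 4 h, and Mafg is below 0 in Ctrl and near 0 in DI from 2 h on.

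Other genes of the pathway were read from 3 lists. The list of CNC partners and of proteins of NRF2 and NRF1 turnover holds 27 genes, of which 26 were tested. None of these was called higher in DI at any time, and 1, 1, 2, 4 and 5 were called lower at 0, 1, 2, 4 and 6 h, where 2.17%, 3.03%, 3.97%, 6.00% and 8.95% of all genes were called lower. These counts of 26 genes are small, those at 0 and 1 h are near the share of all genes, and nothing particular to the list is read from them. The list had a median log2 DI/Ctrl between -0.15 and 0.17. At an unadjusted p under 0.05, 1, 2, 4, 2 and 1 were higher, limma-voom called 0, 0, 1, 0 and 0 higher, and the DESeq2 Wald test 0, 1, 1, 1 and 0. Maf, a large MAF factor with an activation domain, was lower at all 5 times, at 689 CPM in DI and 2433 CPM in Ctrl at 0 h (log2 -1.82 ± 0.37, adjusted p = 0.00385) and at 1371 CPM in DI and 5632 CPM in Ctrl at 6 h (log2 -2.04, adjusted p = 0.000454). Fbxw11, a substrate adaptor of the ligase that acts on NRF2 apart from KEAP1, was lower in DI at 2, 4 and 6 h, with a log2 of -1.67 ± 0.36 at 4 h (adjusted p = 0.00296). Chd6, a chromatin remodeller (34.5 CPM in DI and 138 CPM in Ctrl, adjusted p = 4.5e-05), and Ep300 (log2 -1.20 ± 0.31, adjusted p = 0.00860), an acetyltransferase, were lower in DI at 6 h. Cul3, chosen after its values were seen because its product carries KEAP1, was not called at any time, with a log2 between -0.36 and 0.35.

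The next list holds autophagy receptors and machinery, the setting of p62. All 28 genes of that list were tested, and 0, 0, 1, 2 and 1 were called higher and 0, 0, 1, 0 and 3 lower in DI at 0, 1, 2, 4 and 6 h. With 0, 0, 2, 2 and 4 of 28 called either way, where 3.60%, 4.89%, 6.24%, 9.43% and 14.2% of all genes were called, the list was below or near the share of all genes. The median log2 DI/Ctrl was between -0.06 and 0.14. Unadjusted, 1, 1, 5, 3 and 4 were higher and 0, 0, 3, 1 and 4 lower at a p under 0.05, and at 1 h limma-voom and the DESeq2 Wald test each called 1 higher. Gabarapl1, an ATG8 family member, was higher at 2 h (log2 1.12, adjusted p = 0.0495) and at 6 h (log2 1.22 ± 0.35, adjusted p = 0.0192). Optn, another autophagy receptor, was at 10.05 CPM in DI and 50.4 CPM in Ctrl at 2 h (log2 -2.32 ± 0.54, adjusted p = 0.00916) and was lower at 6 h (log2 -1.96, adjusted p = 0.0144). At 6 h the receptor Tax1bp1 (log2 -1.32 ± 0.31, adjusted p = 0.00518) and Becn1, a subunit of the lipid kinase complex that starts autophagosomes (log2 -0.99 ± 0.31, adjusted p = 0.0341), were lower in DI. At 4 h Atg5 was higher (log2 1.12 ± 0.31, adjusted p = 0.0221), and Tfeb, a factor that drives lysosome genes, was at 8.05 CPM in DI and 0.391 CPM in Ctrl (adjusted p = 0.00210). That Ctrl mean is under the level of 3 reads in the Ctrl 4 h libraries, 0.833 and 0.679 CPM. The size of the Tfeb difference is thus uncertain. Its call was not checked in the alternatives, and neither were the other DI against Ctrl calls of single genes named from the 3 lists. Of the 18 such calls of members, 5 held in every alternative.

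Canonical NRF2 targets were the list with the most calls. Of 32 genes 31 were tested, and 24, 22, 23, 23 and 25 were called higher and 0 lower in DI at 0, 1, 2, 4 and 6 h. Of all tested genes 1.43%, 1.86%, 2.27%, 3.43% and 5.24% were called higher, and 2.17%, 3.03%, 3.97%, 6.00% and 8.95% lower. At an unadjusted p under 0.05, 1 was lower, at 2 h, and limma-voom and the DESeq2 Wald test called 0 lower. The median log2 DI/Ctrl was 2.23, 2.01, 2.02, 1.83 and 2.33, and that of all tested genes lay between -0.07 and 0.00. The smallest adjusted p of the list was that of Slc7a11, the cystine importer, at 0 h (log2 4.98, adjusted p = 1.3e-09) and of Srxn1, sulfiredoxin, at 6 h (log2 5.10, adjusted p = 3.8e-10). Slc7a11 also rose after the stimulus at all 4 times in both treatments, by less in DI than in Ctrl cells at 1, 2 and 4 h (response difference -3.81, -3.43 and -2.10 on the log2 scale, adjusted p = 1.53e-05, 7.32e-05 and 0.0127), of which limma-voom did not call 4 h. The list was chosen with earlier results of these data known and is no independent evidence of its direction. Nfe2l2 itself was called at 4 h alone, while 22 or more of these 31 targets were called at each time.

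The genes closest in pattern were named by Pearson's r of the mean log2 CPM over the 10 groups, among the 4962 genes that averaged 20 CPM or more. Predicted genes with Gm or Rik symbols were left out. The points share their libraries and the split between DI and Ctrl, so each r is a description. The closest gene was Card19 for Sqstm1 (r = 0.992), Ago2 for Mafg (0.961), Bin1 for Osgin1 (0.965), Cmip for Nfe2l2 (0.905), Slc8b1 for Nfe2l1 (0.939) and Tnfaip1 for Keap1 (0.947). It was Rlim for Bach1 (r = 0.975), Osm for Mafk (0.985), H3f3b for Maff (0.964) and another member, Nfe2l1, for Trim16 (0.948). Next came Mgst1 and Akr1a1 for Sqstm1 (r = 0.989 and 0.983), Psen2 and Plxna1 for Mafg (0.953 and 0.947), and Birc3 and Tfec for Maff (0.954 each). Over the 20 libraries the r of the closest pairs ran from 0.708 (Trim16 and Nfe2l1) to 0.963 (Sqstm1 and Card19). By that measure Fam129b, and not Nfe2l1, was closest to Trim16 (0.868). Between members, Mafk and Maff gave r = 0.935 over the 10 DI libraries and 0.944 over the 10 Ctrl libraries. Bach1 and Maff gave 0.838 over the DI libraries and 0.873 over the Ctrl libraries. Sqstm1 and Mafg, both higher in DI at every time, gave 0.0739 over the DI libraries and -0.707 over the Ctrl libraries.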

How the data were processed

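RNA of 20 libraries was read from the 3′ ends of polyadenylated transcripts with a barcoded oligo-dT primer, and no molecular identifiers are named, per the labels' protocols. Per the submitters' processing notes STAR, HTSeq, DESeq2 and the mm10 build were used, with no versions or strand setting given. The deposited values are raw counts per Ensembl gene, with no normalization by the authors. Of the 22165 IDs, 21745 matched a symbol in the GENCODE annotation of GRCm38.

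In R 4.3.3, genes were filtered with filterByExpr by group, and libraries were scaled by edgeR's TMM factors. edgeR 4.0.16 fitted 1 quasi-likelihood model with a coefficient per group to all 20 libraries. It gave 17 contrasts, with p adjusted by Benjamini-Hochberg over the 10663 tested genes within each and called under 0.05. Levels are TMM-scaled CPM, except that marker sums are CPM of the library total without TMM. SE is the log2 fold change over the root of F. Alternatives used limma 3.58.1 and DESeq2 1.42.0, other scalings and filters, counts collapsed to estimated molecules, a replicate block and left-out libraries. The steps were tested on simulated data. The labels do not say that replicate numbers pair libraries, and the main fit used no pairing. Deviations of same-numbered libraries correlated between -0.09 and 0.10. That cannot exclude a pairing, since noise at low counts weakens such a correlation.

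Earlier results of these data were known when the members, the lists and the naming rule were chosen. That rule names all members, up to 4 called genes per list and contrast with the smallest p, and the 3 genes closest in pattern to each member. Promoters came from RefSeq (GRCm38.p6), and proteins were not used here.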

Additional observations from a re-analysis of the deposited data

Results flagged for a closer look

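The response difference of Maff at 4 h was called in the main fit. The DI change from 0 h, 4.15 ± 0.36 on the log2 scale, minus the Ctrl change, 6.38 ± 0.40, was -2.24 ± 0.49 (SE, edgeR, adjusted p = 0.0217). It was picked out because the difference itself was tested and passed the threshold, with 1 such test per member at each of 4 times. The sign was the same at 1, 2 and 6 h, where it was not called. Its adjusted p ran from 0.00143 to 0.230 over the alternatives, so a difference in response was not established here. Outliers within a group were not tested, since each group holds 2 libraries.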

How the results depend on the processing

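Of the 55 member calls, 24 held in every alternative in which they were tested and 0 reversed. Leaving out 1 library leaves 1 in its group and less power, so a call can be lost while its estimate hardly moves. Mafg at 1 h kept a log2 DI/Ctrl of 1.01 to 1.06, against 1.04 with all libraries. The estimate of Nfe2l1 at 6 h did move, from 1.14 to 0.66 without DI 6 h replicate 2. Among the 18 calls of DI against Ctrl, the 5 that held were Mafg at 2, 4 and 6 h, Sqstm1 at 6 h and Osgin1 at 6 h. DESeq2 size factors, a filter at 5 CPM in 2 libraries and the DESeq2 Wald test kept all 55, limma-voom kept 50, quality weights by treatment 49, estimated molecules 51 (2 not tested) and a fit of only the compared groups 44. With the replicate block, 54 calls were kept and 3 rather than 4 members were called in DI against Ctrl at 4 h. Only the compared groups gave 0 members at 0 h and 1 at 1 h in DI against Ctrl, and 3 at 4 h in DI over time. For DI over time, quality weights gave 2 at 4 h, and limma-voom and the Wald test 5 at 6 h. For response differences at 1 h, 1 member (Maff) was called with DESeq2 size factors, scaling on genes of at least 32 CPM, no filter, the Wald test, or without replicate 2 of DI at 2, 4 and 6 h. At 4 h 2 were called with that scaling, no filter or the Wald test, and 0 with quality weights or only the compared groups. At 6 h 1 was called with that scaling or the Wald test. Leaving out 1 library at a time gave 0 to 2 members in DI against Ctrl at 0 h, 0 to 1 at 1 h, 1 to 3 at 2 h, 1 to 3 at 4 h and 3 to 5 at 6 h. It gave 2 to 3 in Ctrl at 1 h, 3 to 6 at 4 h and 4 to 6 at 6 h, 3 to 5 in DI at 6 h, and 0 to 1 for the response differences at 1, 4 and 6 h. Over all genes and alternatives, calls of DI against Ctrl ran from 91 to 728 at 0 h (main 384), 252 to 832 at 1 h (521), 276 to 1063 at 2 h (665), 421 to 1405 at 4 h (1006) and 750 to 1923 at 6 h (1513). Those of response differences ran from 13 to 60 at 1 h (27), 8 to 124 at 2 h (38), 37 to 217 at 4 h (81) and 61 to 335 at 6 h (165). Those of Ctrl over time ran from 255 to 1238, 775 to 3164, 1620 to 4828 and 1818 to 4630 at 1, 2, 4 and 6 h, where the main counts were 434, 1303, 2594 and 2826. Those of DI over time ran from 161 to 564, 532 to 1543, 926 to 2450 and 1004 to 2576, where the main counts were 383, 1169, 1998 and 2148. The cause of these moves was not tested. Scaled to the total count without TMM, 44 of 100 group levels moved by more than 1 SD of the 2 libraries of the group. The shift has a direction. Keap1 was at 131 CPM with TMM and 183 without in Ctrl 0 h replicate 1, and at 244 and 193 in Ctrl 4 h replicate 1. In DI replicate 1 it was at 158 and 216 at 0 h and at 240.4 and 209 at 4 h. The factor is shared by all genes of a library, so TMM raises changes from 0 h. Which scaling is nearer the true levels was not tested. Trim16 had the fewest reads of the members, 0 to 46 per library.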
